A study of Rattus norvegicus with 8 samples.

Results

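The 10 genes described here report on bone morphogenetic protein (BMP) signaling in the rat Achilles tendon, among them the inhibitory SMAD genes *Smad6* and *Smad7*. They were taken by gene symbol (*Smad6*, *Smad7*, *Smad9*, *Atoh8*, *Eng*, *Acvrl1*, *Id1*, *Id2*, *Id3*, and *Bambi*), and each was found among the 32883 genes of the deposited tables. The right tendons of 8 wild-type male Sprague-Dawley rats, 8 to 10 weeks old, were sequenced with 1 library per rat. The 4 rats of the 12 h p.r. group ran on a treadmill for 1 hour and were killed after 12 hours of rest, and the 4 rats of the naïve control (NC) group stayed in their cages until the same time. Airflow and a mild electric stimulus prompted the running, so their part in any difference cannot be told apart from that of the run. The 10 genes were proposed with results of this same comparison in view, so their differences between the groups are given as a description, with no p-value, and the counts of genes past a threshold given further on support nothing.

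BMPs bind pairs of type I and type II receptor kinases, which phosphorylate the receptor SMADs encoded by *Smad1*, *Smad5*, and *Smad9*. These proteins join SMAD4 and act on target genes in the nucleus, including the *Id* genes and the inhibitory SMADs, which feed back on the receptors. In endothelial cells the type I receptor ALK1 (*Acvrl1*) and its co-receptor endoglin (*Eng*) carry signals of BMP9 and BMP10, while in tendon, BMP signaling is known for its role where tendon joins bone.

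Promoter sequences were looked up for the genes in the RefSeq table of the assembly GRCr8, which held 8 of the 10. *Smad6* and *Acvrl1* had no entry. The stretches just before the start of *Atoh8*, *Eng*, and *Id3* are shown because these 3 genes had the largest differences described below among those with an entry. Each ends before the first annotated start of its gene, and they hold 250 bases for *Atoh8*, 161 for *Eng*, and 212 for *Id3*. Capitals mark matches on either strand to the SMAD box GTCT and to GGAGCC, a GC-rich letter run of the kind bound by SMAD1 and SMAD5, and the related GGCGCC was also searched.
Atoh8 (GRCr8, chr4:105850380-105850629, minus strand): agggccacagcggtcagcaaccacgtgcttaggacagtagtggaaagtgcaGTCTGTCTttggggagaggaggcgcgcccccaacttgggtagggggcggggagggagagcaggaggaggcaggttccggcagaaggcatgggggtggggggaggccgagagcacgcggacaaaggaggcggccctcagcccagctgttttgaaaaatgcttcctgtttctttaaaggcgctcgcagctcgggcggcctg
Eng (GRCr8, chr3:36332029-36332189, plus strand): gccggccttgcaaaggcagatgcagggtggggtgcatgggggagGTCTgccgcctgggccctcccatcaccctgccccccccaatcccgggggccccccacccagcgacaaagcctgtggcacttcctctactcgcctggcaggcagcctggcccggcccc
Id3 (GRCr8, chr5:153656041-153656252, plus strand): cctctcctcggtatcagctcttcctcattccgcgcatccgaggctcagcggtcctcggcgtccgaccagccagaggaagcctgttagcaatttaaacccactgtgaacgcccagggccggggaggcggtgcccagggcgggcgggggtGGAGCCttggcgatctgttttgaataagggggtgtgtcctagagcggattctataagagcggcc

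Over the full 250 bases before the start given for each gene, GTCT had 2 matches in *Atoh8*, side by side at −199 and −195. It had 2 in *Eng*, at −206 and −18, and 0 in *Id3*. The *Eng* match at −18 lies past the end of the stretch shown. A match to GTCT was held by 84.0% of all 33469 windows of this length, so it is common. The rarer GGCGCC, held by 8.69% of windows, had 2 matches before *Smad7* and 1 each before *Smad9* and *Bambi*, and 0 before *Atoh8*, *Eng*, *Id1*, *Id2*, and *Id3*. GGAGCC, held by 23.0% of windows, had 1 match before *Id3* and 2 before *Bambi*. The E-box CANNTG, the site of basic helix-loop-helix factors that ID proteins hold back, was in 65.5% of windows. It had 2 matches each before *Atoh8* and *Smad9* and 1 each before *Eng*, *Id1*, and *Id2*. These letter matches are a description only.

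In level per gene length, the genes spanned a wide range. FPKM values, in which the authors took gene length and a single factor for each rat into account, averaged 186 ± 29.3 (SD, n = 8 rats) for *Id1* and 186 ± 30.5 for *Id3*, helix-loop-helix inhibitors of transcription that are immediate targets of BMP SMADs. *Id1* was above *Id3* in 3 of the 8 rats, which were NC replicates 1, 3, and 4. It was below *Id3* in NC replicate 2 and in every running rat, so their order was not fixed. *Eng* followed at 80.2 ± 16.5 FPKM, below both in all 8 rats. *Acvrl1* was at 34.7 ± 2.26 FPKM and *Id2*, the third *Id* gene of the set, at 29.8 ± 6.93 FPKM, with overlapping ranges. *Bambi* (7.05 ± 2.05 FPKM), *Smad6* (6.09 ± 1.98 FPKM), *Atoh8* (5.4 ± 2.1 FPKM), and *Smad7* (4.7 ± 0.478 FPKM) overlapped with their neighbors in this order and all lay below *Id2* in every rat. *Smad9*, which encodes the third BMP receptor SMAD (SMAD8), had 4 reads over the 8 rats together.

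**Figure D1:**
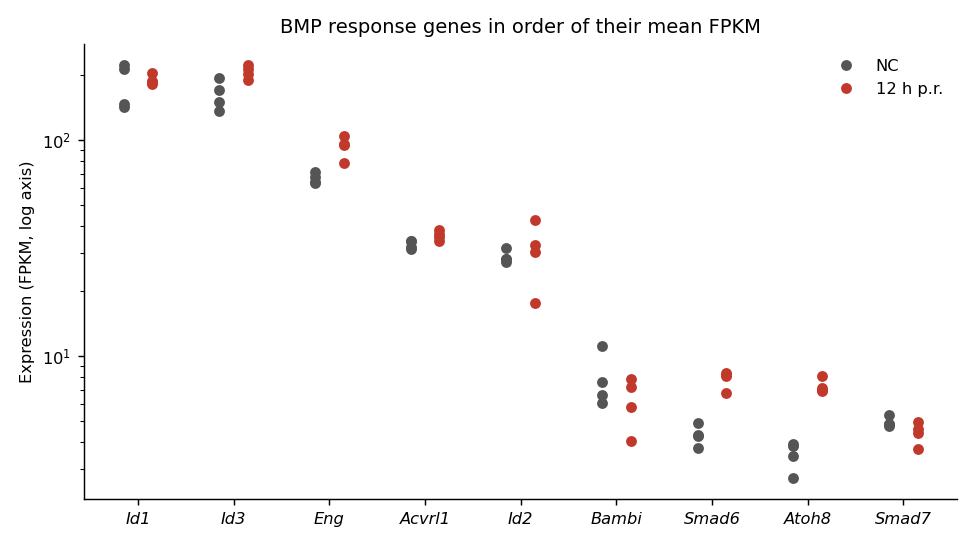
FPKM on a log axis for the 9 genes with enough counts to be tested, in order of the mean over 8 rats, with 1 point per rat in the NC group (gray) and the 12 h p.r. group (red). *Id1* and *Id3* share the top of the scale near 186 FPKM, and the order of *Smad6*, *Atoh8*, and *Smad7* differs between the groups.

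*Smad9* had 0 reads in all 4 rats of the 12 h p.r. group and 1, 1, 2, and 0 reads in the NC rats. A count of 0 still allows up to 0.282 to 0.395 CPM in the libraries of the 12 h p.r. group, taken as 3 reads, so no fold change is given for it. The other 9 genes passed the filter on low counts. Total counts ran from 7350509 to 12951397 per library. Expression within a gene is given below as CPM, the read count scaled to a library of 1000000 reads, and a log2 fold change is that of 12 h p.r. over NC from the edgeR fit across all 13937 genes tested, with its standard error (SE).

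Among the receptor genes, *Eng* (ENSRNOG00000050190) was higher after running and *Acvrl1* (ENSRNOG00000028713) differed little. Endoglin binds BMP9 and BMP10 and passes them to ALK1. *Eng* was at 294, 239, 320, and 293 CPM in 12 h p.r. replicates 1 to 4 and at 195, 206, 218, and 192 CPM in NC replicates 1 to 4. Every running rat was above every control rat. The log2 fold change was 0.50 (SE 0.11), a fold of 1.42. *Acvrl1*, the kinase of this pair, was at 135, 125, 131, and 140 CPM after running and at 117, 125, 115, and 124 CPM in the controls, in the same order of replicates. The groups met at their edges, where the lowest running rat (124.6 CPM) fell just under the highest control rat (124.7 CPM), and the log2 fold change was 0.14 (SE 0.08). *Bambi* (ENSRNOG00000016066), a pseudoreceptor without a kinase that dampens BMP and transforming growth factor–β (TGF-β) signals, was at 10.7, 8.56, 5.95, and 11.6 CPM after running and at 11.1, 8.95, 16.4, and 9.69 CPM in the controls. Its groups overlapped, with a log2 fold change of −0.32 (SE 0.26).

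The inhibitory SMADs differed from each other. *Smad6* (ENSRNOG00000009173), whose product acts mainly against BMP signals, was at 11.3, 11.3, 9.28, and 11.5 CPM in 12 h p.r. replicates 1 to 4 and at 5.93, 6.75, 5.89, and 5.18 CPM in NC replicates 1 to 4. All running rats were above all controls, with a log2 fold change of 0.87 (SE 0.15), a fold of 1.83. These values rest on 55 to 123 reads per library, for which counting alone gives an SD of 13.5 to 9.02%. *Smad7* (ENSRNOG00000018359), whose product acts against both BMP and TGF-β signals, was at 21.6, 20.02, 19.0, and 16.1 CPM after running and at 21.0, 23.1, 20.5, and 20.8 CPM in the controls. The groups overlapped, and its log2 fold change was −0.16 (SE 0.11). In FPKM, *Smad6* was below *Smad7* on average in the NC group (4.32 ± 0.462 against 4.96 ± 0.266; SD, n = 4) and above it in the 12 h p.r. group (7.86 ± 0.751 against 4.43 ± 0.529; SD, n = 4).

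Among the target genes, *Atoh8* (ENSRNOG00000010716) had the largest log2 fold change of the 9 genes. It encodes a basic helix-loop-helix factor that BMP9 induces in endothelial cells. *Atoh8* was at 17.2, 16.7, 19.4, and 16.5 CPM in 12 h p.r. replicates 1 to 4 and at 8.26, 6.5, 9.14, and 9.35 CPM in NC replicates 1 to 4. The lowest running rat lay above the highest control rat by more than the whole range of either group, and the log2 fold change was 1.07 (SE 0.14), a fold of 2.09, on 53 to 176 reads per library.

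The 3 *Id* genes spread from little difference to a modest one. *Id3* (ENSRNOG00000026124) was at 228, 205, 193, and 217 CPM after running and at 172, 152, 198, and 138 CPM in the controls, in the order of replicates 1 to 4. A single control rat, replicate 3, was above the lowest running rat, and the log2 fold change was 0.35 (SE 0.13). *Id1* (ENSRNOG00000021750) was at 199, 175, 180.3, and 180.0 CPM after running and at 206, 137, 216, and 142 CPM in the controls. The running rats lay close together (10.4 CPM SD), inside the wide range of the controls (41.5 CPM SD), of which replicates 1 and 3 were high and replicates 2 and 4 low. Its log2 fold change was 0.07 (SE 0.16). *Id2* (ENSRNOG00000007237) showed the reverse spread, at 45.7, 64.0, 26.4, and 49.0 CPM after running and at 42.2, 42.2, 47.3, and 40.8 CPM in the controls. The running rats covered values on both sides of the controls, with a log2 fold change of 0.10 (SE 0.22).

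**Figure D2:**
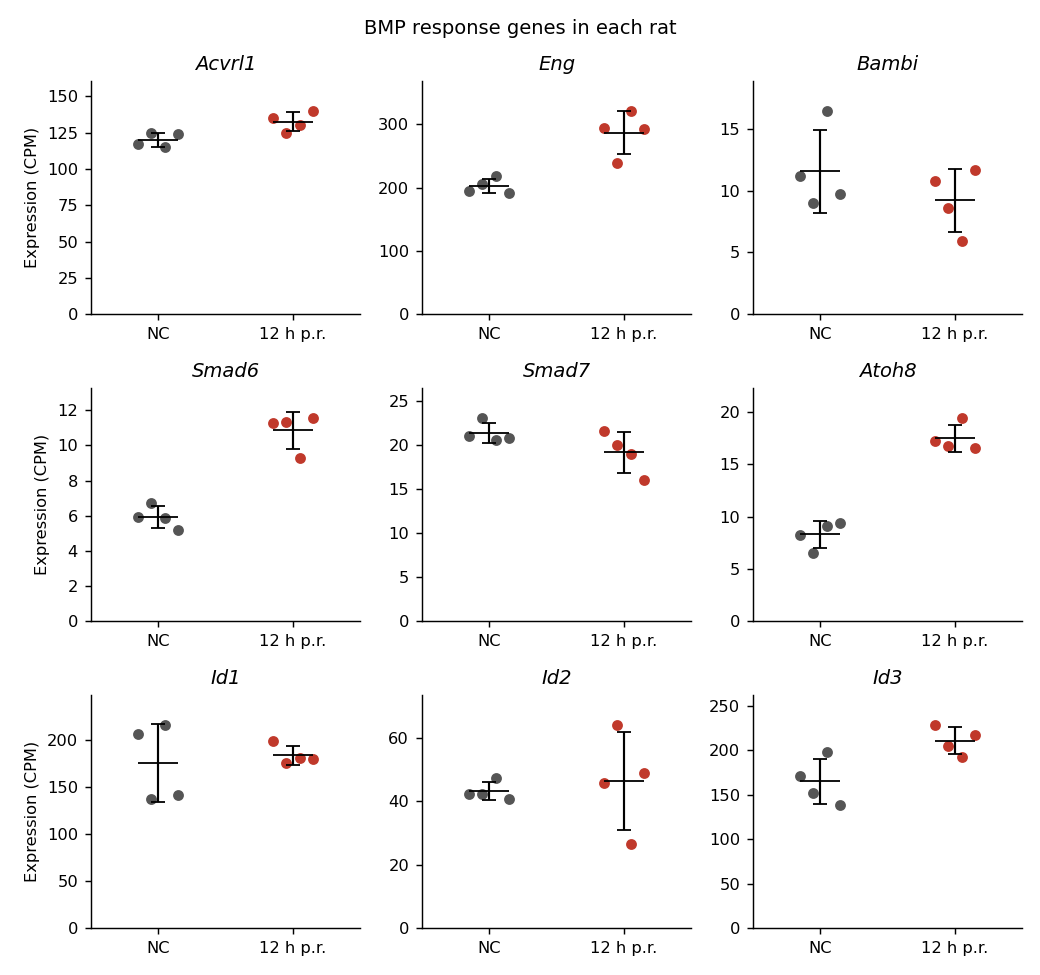
CPM of 9 genes per rat in the NC group (gray) and the 12 h p.r. group (red), with 1 point per rat; the long dash is the mean and the bars are the SD of n = 4 rats. The groups of *Eng*, *Smad6*, and *Atoh8* do not overlap, and those of the other 6 genes do.

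Of the 9 genes tested, 7 had a log2 fold change above 0 and 2 below, with a median of 0.14. Over all 13937 genes tested, 7557 were above 0 and 6380 below, with a median of 0.02. *Smad6*, *Atoh8*, and *Eng* were higher in every running rat than in every control rat, a pattern held by 3.52% of all genes tested, and 0 of the 9 genes were lower without overlap (2.55% of all genes). In the quasi-likelihood fit of edgeR, 0 of the 9 genes had an adjusted p under 0.05 (0.00718% of all genes, a single gene), while 4, *Smad6*, *Atoh8*, *Eng*, and *Id3*, were higher at an unadjusted p under 0.05 (5.44% of all genes). None of the 9 was lower at this unadjusted threshold (0 genes by edgeR, against 4.08% of all genes, and 9.51% differed in either direction). The Wald test of DESeq2 gave an adjusted p under 0.05 for 3 of them, *Smad6*, *Atoh8*, and *Eng* (0.667% of all genes, or 93). Since the genes were proposed with this comparison in view, nothing is read from these shares.

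When single rats were removed, the value for *Atoh8* stayed between 0.97 and 1.13, the one for *Smad6* between 0.81 and 0.94, and the one for *Eng* between 0.44 and 0.58. *Id3* ran from 0.28, without NC replicate 4, to 0.45, without NC replicate 3. *Smad7* stayed below 0, from −0.22 to −0.08, and *Acvrl1* above it, from 0.12 to 0.17. The sign of *Id1* and *Id2* depended on single rats. *Id1* was at −0.03 without NC replicate 2 and also below 0 without NC replicate 4, and *Id2* was at −0.09 without 12 h p.r. replicate 2 and at 0.29 without 12 h p.r. replicate 3. *Bambi*, at −0.32 with all rats, ran from −0.46 without 12 h p.r. replicate 4 to −0.11 without NC replicate 3.

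**Figure D3:**
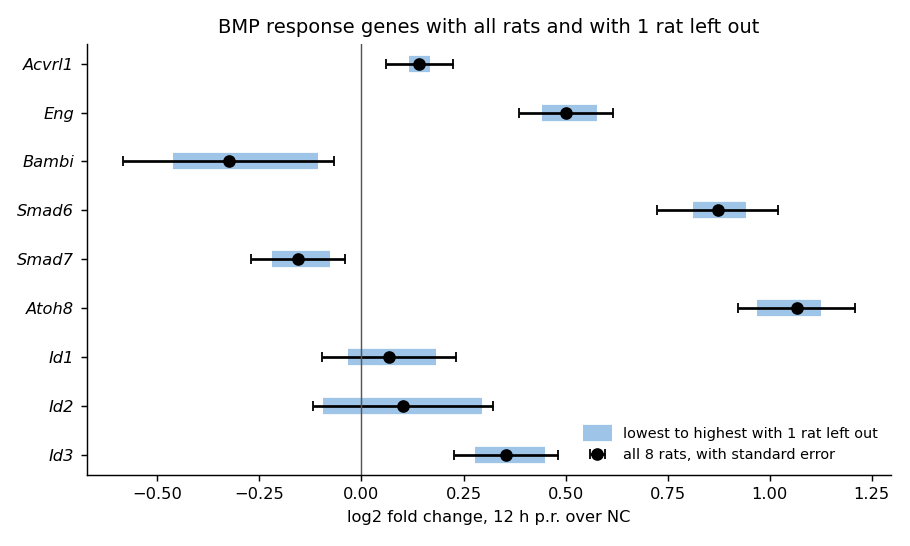
Log2 fold change of 12 h p.r. over NC for 9 genes; black points and bars are the value and SE with 8 rats, and the blue band runs from the lowest to the highest value with 1 rat left out. The bands of *Smad6*, *Atoh8*, *Eng*, *Id3*, and *Acvrl1* lie above 0, while those of *Id1* and *Id2* cross it.

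Ratios of reads within a library need no scaling between libraries. For every 100 reads of *Smad7*, 52.1, 56.6, 48.8, and 71.9 reads of *Smad6* were counted in 12 h p.r. replicates 1 to 4 and 28.2, 29.3, 28.7, and 24.9 in NC replicates 1 to 4. The mean ratio was thus 57.3 ± 10.2 (SD, n = 4) after running and 27.8 ± 1.96 (SD, n = 4) in the controls, 2.06 times as high, with no overlap. For every 100 reads of its partner *Acvrl1*, *Eng* had 192 to 245 reads after running and 155 to 190 in the controls, 1.28 times as high, again without overlap. *Id3* had 107 to 121 reads per 100 of *Id1* after running and 83.3 to 111 in the controls, which overlapped.

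These tissues hold several cell types, and in bulk libraries fewer cells of a type cannot be told apart from less RNA per cell. Endothelial cells express *Eng* and *Acvrl1*, so 15 other endothelial markers were set beside them. Their mean log2(CPM + 0.5) was 6.89 ± 0.113 (SD, n = 4) at 12 h p.r. and 6.83 ± 0.058 (SD, n = 4) in the NC group, a difference of 0.06 (2-sided exact permutation test, p = 0.4; 0.771 after Benjamini-Hochberg adjustment over 6 marker lists). Their summed CPM ran from 2080 to 2569 after running and from 2156 to 2437 in the controls, with no marker at 0. Of the 15 markers, 9 had a log2 fold change above 0 and 6 below. The transcription factor gene *Sox18* had the highest (0.46, SE 0.15) and the guidance receptor gene *Robo4* the lowest (−0.68, SE 0.43), and 0 had an edgeR adjusted p under 0.05 (4, or 26.7%, at an unadjusted p under 0.05, 3 of them higher, beside 9.51% of all genes tested). The 3 higher ones, *Tie1*, *Egfl7*, and *Sox18*, did not overlap between the groups, a pattern held by 3.52% of all genes tested. DESeq2 called 1, the secreted vessel protein gene *Egfl7* (log2 fold change of 0.40 by edgeR, DESeq2 adjusted p = 0.0121). *Egfl7*, *Sox18*, *Tie1*, and *Emcn* also stand in lists the study drew from these same rats.

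With the endothelial marker mean of each rat as a covariate, the log2 fold change was 0.45 (SE 0.12) for *Eng*, 0.92 (SE 0.16) for *Smad6*, 1.02 (SE 0.15) for *Atoh8*, and 0.12 (SE 0.09) for *Acvrl1*. Reads were also set against those of *Cdh5*, the cadherin of endothelial junctions, which itself had a log2 fold change of 0.29 (SE 0.15). Other endothelial markers lay lower, such as *Tek* at −0.12 (SE 0.11) and *Emcn* at −0.40 (SE 0.16), so these ratios depend on the marker taken. For every 100 reads of *Cdh5*, *Eng* had 91.2 to 113 reads after running and 69.3 to 100.5 in the controls, which overlapped, and so did *Smad6*, with 2.64 to 4.5 against 1.87 to 3.06 reads. *Atoh8* did not overlap, with 5.42 to 6.65 reads after running and 2.51 to 4.25 in the controls.

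**Figure D4:**
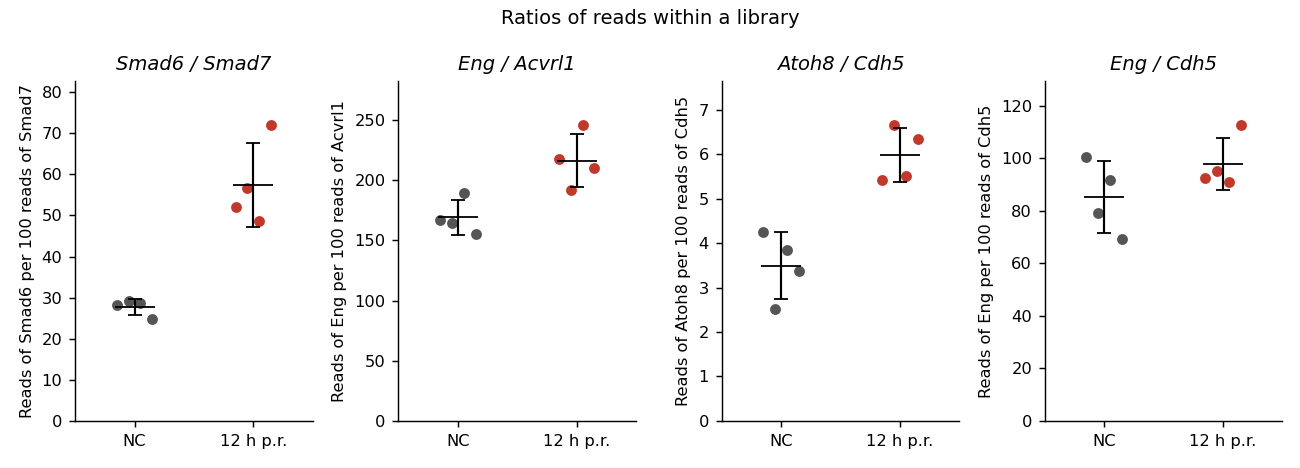
Reads of 1 gene per 100 reads of another in the same library, in NC (gray) and 12 h p.r. (red) rats, with 1 point per rat; the long dash is the mean and the bars are the SD of n = 4 rats. The groups are apart for *Smad6* over *Smad7*, *Eng* over *Acvrl1*, and *Atoh8* over *Cdh5*, and they overlap for *Eng* over *Cdh5*.

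The tenocyte genes *Tnmd*, *Scx*, and *Col1a1* were found in every library, as the label of the tissue asks, but 3 libraries stood apart in markers of other tissues. In 12 h p.r. replicate 3, the mean log2(CPM + 0.5) of 8 skeletal muscle markers was 11.9, against 7.6 to 8.27 in the other running rats and 6.74 to 10.1 in the controls. The mean of 9 tenocyte markers was lowest there, at 8.98, against 10.04 to 10.3 in the other running rats and 9.31 to 9.95 in the controls. In the same rat, *Smad6*, *Id2*, *Id3*, and *Bambi* were the lowest of their group, and *Atoh8* and *Eng* the highest. In NC replicate 3 and 12 h p.r. replicate 1, the mean of 8 cartilage and bone markers was 6.10 and 5.14, against 0.978 to 2.83 in the other rats. *Eng*, *Id1*, *Id2*, *Id3*, and *Bambi* were higher in NC replicate 3 than in the other NC rats. Without these 3 libraries, which leaves 2 running rats and 3 controls, the log2 fold change was 0.95 for *Smad6*, 1.04 for *Atoh8*, 0.43 for *Eng*, 0.45 for *Id3*, 0.44 for *Id2*, and 0.03 for *Bambi*. The 8 pericyte and smooth muscle markers were all above 0 in log2 fold change, from 0.04 for *Rgs5* to 0.36 for *Myh11*, with 0 at an edgeR adjusted p under 0.05 (0 also at an unadjusted p under 0.05 and by DESeq2). The leukocyte markers had 7 of 8 below 0, from −0.87 for *Lyz2* to 0.17 for *Cd14*, with 0 at an adjusted p under 0.05 by edgeR or DESeq2 and 0 at an unadjusted p under 0.05. Over all genes tested, 7557 were above 0 and 6380 below. Of the 9 tenocyte markers, 6 were above 0 and 3 below, with 0 at an adjusted p under 0.05 by edgeR or DESeq2. At an unadjusted p under 0.05 by edgeR, 3 (33.3%) were higher, beside 5.44% of all genes tested. These were the transcription factor genes *Scx* (0.62, SE 0.22) and *Mkx* (0.78, SE 0.27) and the matrix protein gene *Thbs4* (0.56, SE 0.23). *Scx* was higher without overlap, a pattern held by 3.52% of all genes tested, and *Thbs4* also stands in a list drawn from these rats. Of the 8 skeletal muscle markers, 7 were above 0 and 1 below, with a median of 1.45. They ran from −1.77 (SE 1.16) for *Myh7* to 2.04 (SE 1.23) for *Ckm*. *Ckm* was at 8338 CPM in 12 h p.r. replicate 3 and at 179 to 418 CPM in the other running rats, against 114 to 1060 CPM in the controls. Of the 5 cartilage and bone markers tested, 1 was above 0 and 4 below, from −1.76 (SE 1.77) for *Col2a1* to 0.15 (SE 0.65) for *Acan*. *Col2a1* was at 594 CPM in NC replicate 3, 167 CPM in 12 h p.r. replicate 1, and 1.79 to 10.8 CPM in the remaining rats. In both lists, 0 reached an unadjusted p under 0.05 by edgeR. The means of the marker lists did not pass the 2-sided exact permutation test over rats, with an adjusted p of 0.771 for the pericyte and smooth muscle (difference of 0.19), tenocyte (0.24), and leukocyte (−0.41) lists, 0.926 for cartilage and bone (−0.29), and 1 for skeletal muscle (0.03). The part of these tissues in the values of the BMP genes was not tested.

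The rest of the pathway was read from 63 other genes of BMP signaling, of which 58 had enough counts. By edgeR 0 of the 58 had an adjusted p under 0.05, and the same held for DESeq2. At an unadjusted p under 0.05 there were 9 (15.5%), 4 higher and 5 lower, beside 9.51% of all genes tested. Of these 9, *Id4*, *Hes1*, *Tmem100*, and *Bmper* stand in gene lists that the study drew from these same rats, so they are not independent of this comparison. All the pathway lists were also chosen with earlier results of these data known, so nothing is read from the counts of genes here. The median log2 fold change of the 58 was 0.03. Without overlap between the groups, 3 of the 58 were higher (*Acvr2b*, *Id4*, and *Tcf3*), beside 3.52% of all genes tested. Another 3 were lower without overlap (*Acvr2a*, *Tgfbr3*, and *Hes1*), beside 2.55% of all genes tested.

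None of the SMAD genes that carry the signal passed the test. The BMP receptor SMAD genes *Smad1* and *Smad5* had log2 fold changes of −0.03 (SE 0.13) and −0.02 (SE 0.11), and the shared partner gene *Smad4* one of 0.16 (SE 0.09). The TGF-β SMAD genes *Smad2* and *Smad3* were at −0.12 (SE 0.08) and 0.03 (SE 0.15). The edgeR adjusted p of these 5 genes was at least 0.638. An unadjusted p under 0.05 was reached by 0 of the 5 with edgeR, and an adjusted one by 0 with DESeq2. Of 14 genes for regulators of SMADs, such as the ubiquitin ligase gene *Smurf2* (0.16, SE 0.09), log2 fold changes ran from −0.24 for *Pmepa1* to 0.20 for *Ldlrad4*, 11 above and 3 below 0, and 0 reached an unadjusted p under 0.05 by edgeR or an adjusted p under 0.05 by DESeq2.

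Among 11 receptor and co-receptor genes, the type I receptor genes *Bmpr1a* and *Acvr1* were both at −0.03 (SE 0.14 and 0.10) and the type II receptor gene *Bmpr2* at −0.11 (SE 0.13). The type I receptor gene *Bmpr1b*, at 1.07 to 4.87 CPM, had a log2 fold change of 0.27 (SE 0.44). The activin and BMP type II receptor gene *Acvr2a* was at 42.3 to 47.9 CPM after running and 49.2 to 57.5 CPM in the controls, without overlap, with a log2 fold change of −0.24 (SE 0.08, edgeR adjusted p = 0.446). Its relative *Acvr2b* was at 1.55 to 2.11 CPM against 0.321 to 1.47 CPM, a log2 fold change of 1.21 (SE 0.40, edgeR adjusted p = 0.434), on 4 to 21 reads per library. *Tgfbr3*, the gene of the co-receptor betaglycan, was at 204 to 216 CPM against 225 to 309 CPM, a log2 fold change of −0.33 (SE 0.12, edgeR adjusted p = 0.452). The co-receptor genes *Rgma*, *Rgmb*, and *Neo1* were at 0.10 (SE 0.19), 0.34 (SE 0.22), and −0.10 (SE 0.11). *Hjv*, a co-receptor gene known from skeletal muscle and liver, was at 335 CPM in 12 h p.r. replicate 3, where the muscle markers were high, and at 16.2 to 90.1 CPM in the other rats.

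The other target genes pointed both ways. *Id4*, the fourth *Id* gene, was at 39.0, 49.8, 46.4, and 48.1 CPM in 12 h p.r. replicates 1 to 4 and at 34.6, 37.2, 37.4, and 36.3 CPM in the controls, without overlap. Its log2 fold change was 0.33 (SE 0.09, edgeR adjusted p = 0.432). *Gja4*, the gene of a gap junction protein of arterial endothelium, was at 50.7 to 80.2 CPM against 47.7 to 57.3 CPM, a log2 fold change of 0.41 (SE 0.14, edgeR adjusted p = 0.452). *Tmem100*, a membrane protein gene induced through ALK1 in endothelium, was at 22.3, 53.9, 33.1, and 37.7 CPM after running and at 102, 42.1, 65.6, and 112 CPM in the controls. NC replicate 2 lay below the highest running rat, and the log2 fold change was −1.13 (SE 0.34, edgeR adjusted p = 0.433). *Hes1*, which Notch signals also induce, was at 26.8 to 31.4 CPM against 32.6 to 40.3 CPM, a log2 fold change of −0.31 (SE 0.10, edgeR adjusted p = 0.433). *Hey1* and *Hey2*, also shared with Notch, were at 0.21 (SE 0.29) and 0.15 (SE 0.20).

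**Figure D5:**
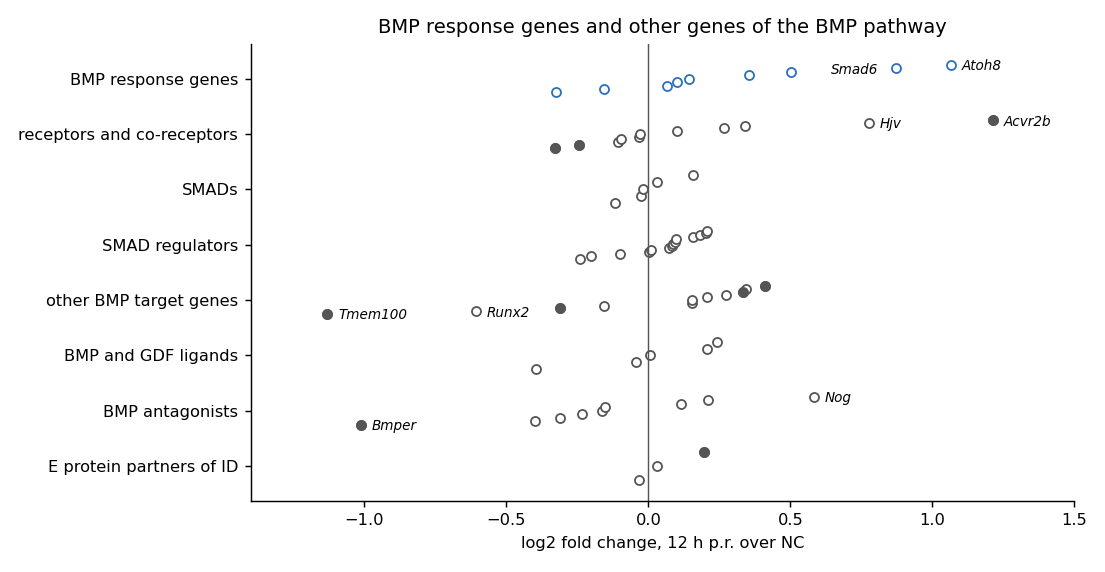
Log2 fold change of 12 h p.r. over NC, with 1 point per gene, for 9 BMP response genes (blue) and for 58 other genes of the pathway grouped by role (gray); filled gray points have an unadjusted edgeR p under 0.05, and this was not marked for the blue points. The SMADs and their regulators lie between −0.24 and 0.20, and the points named are those past 0.55 in size.

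Of 10 BMP and GDF ligand genes, 5 had enough counts, and their log2 fold changes ran from −0.39 (*Bmp2*) to 0.24 (*Bmp4*), with 0 at an adjusted p under 0.05 by edgeR or DESeq2 (0 at an unadjusted p under 0.05). *Gdf2* and *Bmp10*, the genes of the ligands of ALK1, had 0 reads in any rat and at most 1 read per rat, respectively. Among 9 antagonist genes, *Bmper*, which encodes a secreted BMP-binding regulator of endothelial cells, was at 5.4 to 9.58 CPM after running and 6.75 to 22.7 CPM in the controls, a log2 fold change of −1.01 (SE 0.33, edgeR adjusted p = 0.433). *Nog*, the gene of noggin, was at 0.58 (SE 0.37). Of the E protein genes, whose products ID proteins bind, *Tcf3* was at 37.1 to 42.6 CPM against 32.9 to 36.2 CPM, a log2 fold change of 0.20 (SE 0.08, edgeR adjusted p = 0.498), while *Tcf4* and *Tcf12* were at 0.03 (SE 0.12) and −0.03 (SE 0.12).

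By likeness over the 8 rats, the genes closest to the mean standardized log2 CPM of the 9 genes were *Cacnb3*, *Stoml1*, *Lrp5*, *Lrfn4*, and *Zc3h7b*, with Pearson coefficients of 0.995, 0.977, 0.954, 0.952, and 0.949. They were picked as the closest of all genes tested, and all points share the 8 libraries and their grouping, so these values describe the ranking alone.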

How the data were processed

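Right Achilles tendon mRNA of 4 rats at 12 h p.r. and 4 NC rats was sequenced from stranded polyadenylate libraries. The authors aligned the reads to Rnor_6.0 with HISAT2 2.1.0, and featureCounts 1.6.3 gave the deposited counts, which are whole numbers for each Ensembl gene. In the deposited FPKM values, the counts were divided by the length of the gene and a single factor for each rat, which matched median-ratio size factors. Whether counting used the strand is not given in the sources used here. A table of fold changes and p-values from the authors' own DESeq2 1.30.1 comparison was not used.

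Counts were filtered with filterByExpr, scaled by TMM, and fitted across 13937 genes with the quasi-likelihood model of edgeR 4.0.16, adjusting p-values by Benjamini-Hochberg over all of them. The SE comes from the F statistic. Marker means used log2(CPM + 0.5) and the 2-sided exact permutation test of SciPy 1.17.1, which cannot go below p = 0.0286 with 4 against 4 rats. Scripts were tested on simulated data. Total counts of 7350509 to 12951397 per rat limit precision for genes with few reads. The floor of 3 reads and the counting SD cover counting error only. The SE of a log2 fold change also takes in the spread between rats. Groups came from the sample labels. Alternatives were DESeq2 1.42.0, RLE and upper-quartile factors, other filters, limma 3.58.1 on log2(FPKM + 1) and log2(FPKM + 0.1), a replicate block, marker covariates, and leaving out rats.

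The 10 genes and all lists were chosen with earlier results of these data known. The pathway genes named are those with an unadjusted p under 0.05, the receptors and SMADs, and the ends of each list; others were chosen after their values were seen. The endothelial marker *Pecam1* and the muscle markers *Myh2* and *Myh4* had no match by symbol and were not analysed here.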

Additional observations from a re-analysis of the deposited data

Results flagged for a closer look

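Among 50 groups of 4 values (9 BMP response genes, 9 other pathway genes, 6 marker means, and total counts, in each group of rats), 5 held a rat far from the other 3 by Dixon's criterion, where chance gives about 2.5. *Smad6* was lowest in 12 h p.r. replicate 3, at a log2(CPM + 0.5) of 3.29, against 3.56 to 3.59 in the other running rats. In the same rat the skeletal muscle marker mean was highest, at 11.9, against 7.6 to 8.27. The cartilage and bone marker mean was highest in NC replicate 3, at 6.10, where the remaining controls had 2.02 to 2.5. The endothelial marker mean was highest in NC replicate 4, at 6.92, against 6.79 to 6.81. The leukocyte marker mean was lowest in NC replicate 2, at 5.26, against 6.49 to 6.73. The part of any of these in the values of *Smad6* was not tested, and the log2 fold change of *Smad6* was 0.94 without 12 h p.r. replicate 3.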

How the results depend on the processing

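The number of genes at an adjusted p under 0.05 was 1 with edgeR (1326 at an unadjusted p under 0.05) and 93 with DESeq2. It was 0 in both limma fits of FPKM values (pseudocounts of 1 and 0.1), with the replicate block, and with the endothelial or the muscle marker mean as a covariate, and it ranged from 0 to 0 with 1 rat left out; 879 to 1580 genes had an unadjusted p under 0.05 in these fits. It was 2 without the 3 libraries high in muscle or cartilage and bone markers, an alternative chosen after seeing the data. The cause was not tested. The median log2 fold change of the 9 BMP response genes (0.14) ranged from 0.12 to 0.29 with 1 rat left out, the highest without 12 h p.r. replicate 3, and was 0.43 without the 3 libraries. The number of wider pathway genes at an unadjusted p under 0.05 (9) was 6 to 11 under the alternatives, and the endothelial difference stayed above 0 with an exact p of at least 0.114. All 9 log2 fold changes moved by less than the spread between rats in each of 19 alternatives, while the sign changed in 2 of them for *Id1* and in 1 each for *Id2* and *Bambi*. Deviations of same-numbered rats from their group means correlated at −0.19 to 0.12, and 1 of 4 running rats correlated best with its own number, so the numbers were not taken to pair the rats; with the replicate block, the pathway count was 6 and 974 genes had an unadjusted p under 0.05.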
